A study of Mus musculus with 18 samples.

Results

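Mouse embryonic fibroblasts labelled as Nfic knock-out were compared with wild-type fibroblasts after 10 h of TGF-β1, which uses 6 of the 18 arrays of the series. The members are the 3 knock-out and the 3 wild-type arrays whose labels name the 10 h treatment, each from a different embryo, and the comparison was unpaired because the same number marks different embryos in the 2 genotypes. All cells were primary fibroblasts grown from 14-day-old embryos without head and liver, kept for some hours in medium with an albumin and insulin supplement, and then given 12.5 ng/ml of TGF-β1 for 10 h. The remaining 12 arrays hold untreated cells and cells treated for 1 h, from the same 6 embryos. They show here where the 10 h values differ, and they also enter the estimate of spread behind each standard error and p-value. The labels give no strain, no sex and no account of which part of Nfic was deleted, and no culture kept for 10 h without TGF-β1 was analysed here.

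Nuclear factor I-C belongs to a family of vertebrate transcription factors, with NFI-A, NFI-B and NFI-X, that bind a palindromic DNA element as dimers and are known for roles in lung, brain, hair follicle and tooth root. TGF-β1 signals through a pair of receptor kinases to SMAD2 and SMAD3, which enter the nucleus with SMAD4, and in fibroblasts it drives matrix and contractile genes, while SMAD7 and SKIL limit the signal. Mice without Nfic are known for tooth root defects and altered skin wound healing, and the study set out to ask how the loss of the factor bears on the immediate and the delayed response of fibroblasts to TGF-β1.

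After 10 h no single gene passed the test between the 2 genotypes. Of 13679 tested genes 0 passed at an adjusted p of 0.05 (limma, Benjamini-Hochberg over all tested genes), a percentage called of 0%, and 721 had an unadjusted p under 0.05, or 5.27%, where 684 would by chance. The smallest adjusted p was 0.484. Among the 721 genes 295 read higher in the knock-out (2.16% of those tested) and 426 lower (3.11%). The 2 groups of 3 values did not overlap for 1040 genes, or 7.6%, 361 of them higher in the knock-out (2.64%) and 679 lower (4.96%). The median difference over all genes was -0.02. All differences below are knock-out minus wild type on the log2 scale, given with the standard error of the limma fit, over 3 embryos in each group.

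The number of arrays limits what could be seen. The 95% confidence interval of a difference reached 0.27 to each side for the median gene, and for 96.1% of the genes it lay within 2-fold in either direction. A difference of at least 2-fold was measured for 17 genes higher and 1 lower in the knock-out, and only 2 of these 18, Ccl2 and Csf3, had groups that did not overlap. The genes named below have no adjusted p under 0.05, so they are described by their values, and none is called changed.

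The arrays of 10 h were not equally alike, which touches several results. The median over genes of the standard deviation between embryos was 0.163 in wild type and 0.136 in knock-out at 10 h, against 0.110 to 0.140 in the 4 earlier groups. On the array of knock-out embryo 1, 79 genes read at least 2-fold above the highest of the other 5 arrays, and on that of wild-type embryo 2, 75 genes read at least 2-fold below the lowest of the others. Wild-type embryo 1 had 34 genes at least 2-fold above the rest, and the other 3 arrays had 0 such genes above and 0 to 6 below. Where leaving out one of these 3 arrays moved a printed difference or list median of over 0.2 by more than 1.5 times, the value without it is given.

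The values of Nfic itself overlapped between the genotypes at 10 h. Its brightest probe set, a group of probes for one transcript on the array, is the one used for the gene. It read 10.19, 10.25 and 10.25 in wild-type embryos 1 to 3 and 10.03, 10.23 and 10.17 in knock-out embryos 1 to 3, a difference of -0.09 ± 0.16 (limma adjusted p = 0.973). The other 4 Nfic probe sets had means of 6.66 in wild type and 6.58 in knock-out, 5.14 and 4.92, 6.17 and 6.14, and 6.71 and 6.56, and the groups overlapped for all 5. Where the probes lie relative to the deletion was not examined, so these values check neither label, and the genotype is given as labelled. Of the other family members, Nfib read 7.68, 7.28 and 8.17 in wild type and 7.77, 8.33 and 8.38 in knock-out, a difference of 0.45 ± 0.23 with overlapping groups (limma adjusted p = 0.925), and of 0.23 without wild-type embryo 2. Of the other 6 Nfib probe sets 5 were also higher in the knock-out, and 2 of them, at 0.71 and 0.53, had groups that did not overlap. Nfia differed by -0.16 ± 0.20 and Nfix by 0.01 ± 0.17, each within the spread between embryos. A further Nfix probe set, with means of 5.30 and 5.65, was at 0.34 without overlap. A further Nfia probe set, with low means of 3.55 and 3.33, was at -0.22 without overlap. The groups overlapped for the remaining probe sets of both genes. Of the 40 tested genes nearest to Nfic in RefSeq order, 20 on each side, 3 had an unadjusted p under 0.05 (7.5% beside 5.27% of all genes), 4 had groups without overlap (10% beside 7.6%) and 0 passed.

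The genes with the smallest p and a higher reading in the knock-out were led by Perp, a membrane protein gene of desmosomes and a target of p53. Perp read 6.28, 6.47 and 6.27 in wild type and 7.06, 7.36 and 7.27 in knock-out. Every knock-out value lay above every wild-type value, and the difference was 0.89 ± 0.16, or 1.85-fold (adjusted p = 0.484). It stayed between 0.83 and 0.97 when any 1 of the 6 arrays was left out. Nnat, an imprinted gene that encodes the small membrane protein neuronatin, read 6.76, 6.87 and 6.39 in wild type and 7.44, 7.26 and 7.96 in knock-out, a difference of 0.88 ± 0.18 (adjusted p = 0.484). Clca3a1, of the family of calcium-activated chloride channel regulators, read 5.76, 6.63 and 5.88 against 6.95, 7.04 and 7.05, with a difference of 0.92 ± 0.22 (0.568 adjusted). The phospholipid scramblase gene Plscr2 read 3.46, 3.38 and 3.26 against 4.22, 4.00 and 3.95, all near the bottom of the scale of the array, with a difference of 0.69 ± 0.15 (0.528 adjusted). In these 4 genes the groups did not overlap, as was the case for 2.64% of all genes in this direction. Genes ranked by p here and below were picked from these same values, so this separation adds no support.

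Plekhh2, which encodes a protein with pleckstrin homology and FERM domains, read 5.33, 5.12 and 4.87 in wild type and 5.93, 5.84 and 5.87 in knock-out, a difference of 0.77 ± 0.19 (limma adjusted p = 0.568). Further Plekhh2 probe sets at lower levels were at 0.22 and -0.07, with overlapping groups. The calcium-activated chloride channel gene Ano1 read 6.99, 7.54 and 7.06 against 8.04, 7.75 and 7.79 and differed by 0.66 ± 0.16 (0.571 adjusted). A further Ano1 probe set was at 0.08, with overlapping groups. Il1rap encodes the co-receptor shared by the interleukin-1 and interleukin-33 receptors. It read 6.42, 6.74 and 6.31 against 7.37, 6.91 and 6.90 and differed by 0.57 ± 0.13 (0.568 adjusted), with its highest value in knock-out embryo 1. The other 5 of the 12 higher genes with the smallest p were Hsd11b2, which inactivates glucocorticoids, at 0.49, the secreted protein gene Srpx2 at 0.45, the orphan receptor gene Gprc5b at 0.44, the cytosolic malic enzyme gene Me1 at 0.40 and the myosin light chain gene Myl10 at 0.38. Their groups did not overlap either. A further Gprc5b probe set, with means of 3.87 and 3.85, differed by -0.01 with overlapping groups.

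Among genes lower in the knock-out, the smallest p belonged to Alkbh5, which encodes a demethylase of N6-methyladenosine in RNA. Alkbh5 read 8.93, 8.55 and 8.66 in wild type and 8.12, 8.36 and 8.09 in knock-out. The groups did not overlap, as was the case for 4.96% of all genes in this direction, and the difference was -0.53 ± 0.11 (limma adjusted p = 0.484). A further Alkbh5 probe set averaged 7.68 in wild type and 7.76 in knock-out, a difference of 0.08 the other way, with overlapping groups. Nnmt, the methyltransferase of nicotinamide, read 9.18, 8.96 and 9.36 against 8.47, 8.70 and 8.54, a difference of -0.60 ± 0.12 (0.484 adjusted). Timeless, whose product protects replication forks, read 6.10, 6.10 and 6.29 against 5.66, 5.38 and 5.71, or -0.58 ± 0.12 (0.484 adjusted). A further Timeless probe set was at -0.28, with overlapping groups. Mid1ip1, a regulator of fatty acid synthesis, read 9.55, 9.63 and 9.52 against 9.15, 8.99 and 9.19, or -0.46 ± 0.09 (0.484 adjusted). In the probe sets used for these 4 genes every knock-out value lay below every wild-type value.

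The glutamine transporter gene Slc1a5 read 8.07, 8.52 and 8.40 in wild type and 7.81, 7.56 and 7.89 in knock-out, a difference of -0.57 ± 0.13 (limma adjusted p = 0.528). The cell adhesion gene Nectin2 read 7.73, 7.77 and 7.69 against 7.31, 7.27 and 7.27, a difference of -0.44 ± 0.10 (0.528 adjusted). A further Nectin2 probe set was at -0.20, with overlapping groups. The remaining 6 of the 12 lower genes with the smallest p were Dhrs7 at -0.56, the adenylate cyclase gene Adcy1 at -0.51, Zfp946 at -0.46, Ccdc43 at -0.44, Fam222a at -0.39 and the cyclophilin family gene Ppil3 at -0.32. In all of them the groups did not overlap, which the choice by p makes likely and which adds no support. Further probe sets of Adcy1, Ccdc43 and Ppil3, with means of 3.9 to 4.5, differed by 0.03, 0.05 and 0.08, with overlapping groups.

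**Figure D1:**
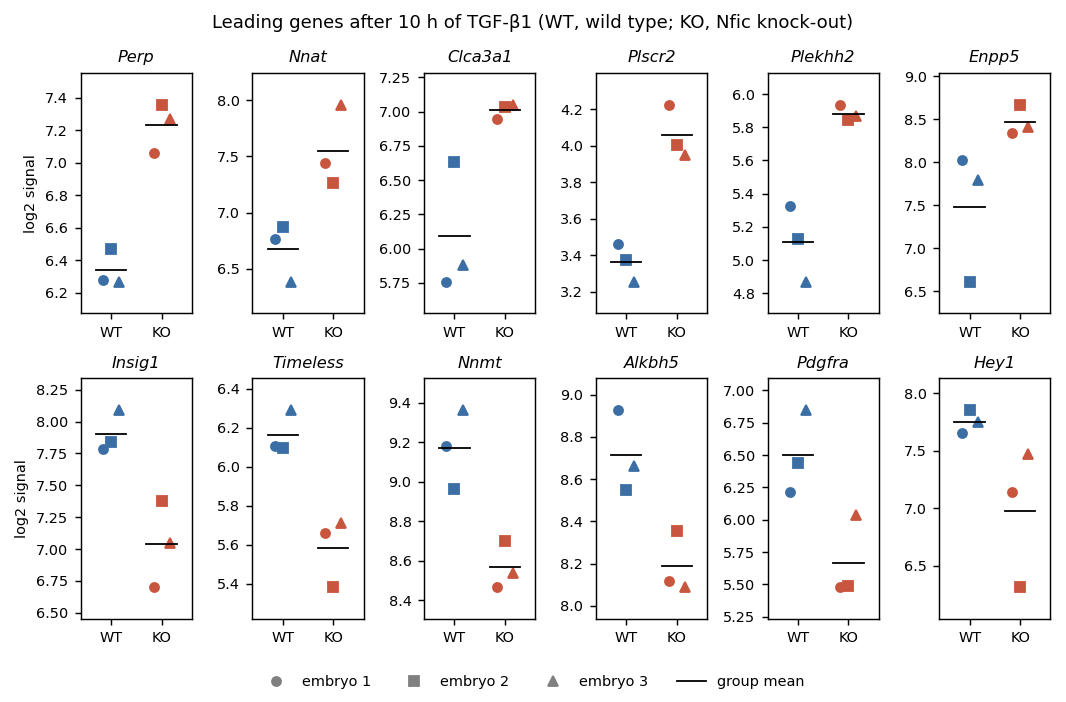
Log2 signal of 12 genes on the 6 arrays of 10 h (vertical axes, each panel on its own scale), wild type in blue and Nfic knock-out in red, with 1 symbol per embryo and the group mean as a line. In each of the 12 panels the 3 values of one genotype lie above the 3 of the other, and the difference ranges from 0.99 in Enpp5 to -0.86 in Insig1. The genes were chosen by p or for this lack of overlap, so it adds no support.

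Ranked by size among genes without overlap, the 8 largest on the higher side were Ccl2, Csf3 and Fpr2, described with the inflammatory genes, Clca3a1, Perp and Nnat, given above, Enpp5 and the tissue factor gene F3. Enpp5, of the family of nucleotide phosphodiesterases, read 8.03, 6.61 and 7.79 in wild type and 8.34, 8.66 and 8.41 in knock-out, a difference of 0.99 ± 0.25 (limma adjusted p = 0.612). Wild-type embryo 2 was far below the other 5 arrays, and without it the difference was 0.56. F3, the starter of blood clotting, read 9.35, 9.80 and 8.83 against 10.26, 10.49 and 10.00, or 0.93 ± 0.29 (0.819 adjusted).

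On the lower side the largest differences without overlap were those of Insig1, Rab3il1, Pdgfra, Mfap4, Rpl39l, Heyl, Hey1 and AW551984. Pdgfra, the gene of platelet-derived growth factor receptor alpha and a marker of fibroblasts, read 6.22, 6.44 and 6.85 in wild type and 5.48, 5.49 and 6.04 in knock-out. Its difference was -0.83 ± 0.29 (limma adjusted p = 0.878), and the groups did not overlap. The other Pdgfra probe sets differed by -0.19 and -0.09, with overlapping groups. Mfap4, a gene of elastic microfibrils, read 8.92, 8.87 and 8.22 against 7.83, 7.63 and 8.06, or -0.83 ± 0.30 (0.912 adjusted). Rab3il1, which encodes an exchange factor of Rab proteins, read 7.40, 6.40 and 6.42 against 6.27, 5.43 and 5.95, or -0.85 ± 0.29 (0.878 adjusted), and without wild-type embryo 1 the difference was -0.52. A copy of the ribosomal protein gene Rpl39 whose probes could also read that relative, Rpl39l, was at -0.80 ± 0.25, and AW551984 at -0.69 ± 0.28 (0.819 and 0.923 adjusted).

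Hey1 and Heyl encode repressors that act below Notch and that TGF-β also induces. Hey1 read 7.65, 7.85 and 7.75 in wild type and 7.14, 6.32 and 7.47 in knock-out, a difference of -0.77 ± 0.21 (limma adjusted p = 0.641). Heyl read 7.02, 7.34 and 6.98 against 6.97, 5.13 and 6.91, or -0.78 ± 0.33 (0.923 adjusted). The other Heyl probe sets were at -0.34 and -0.14, with overlapping groups. Both genes were lowest in knock-out embryo 2, and without it the Hey1 difference was -0.44 and that of Heyl -0.18.

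Some of these genes also differed in the same direction at the earlier times. Of the 361 genes higher in the knock-out without overlap at 10 h, 52 were also higher without overlap in untreated cells (14.4% beside 4.61% of all tested genes), 82 at 1 h (22.7% beside 8.19%) and 29 at both (8.03% beside 0.943%). Of the 679 lower ones 55 were also lower in untreated cells (8.1% beside 3.33%), 106 at 1 h (15.6% beside 6.11%) and 28 at both (4.12% beside 0.855%). The 3 comparisons use different arrays but the same 6 embryos, so these counts do not stand for separate cells. Perp differed by 0.64 ± 0.16 in untreated cells and 0.63 ± 0.16 at 1 h, Nnat by 0.77 ± 0.18 and 1.13 ± 0.18, Clca3a1 by 0.72 ± 0.22 and 0.83 ± 0.22, and Plscr2 by 0.73 ± 0.15 and 0.33 ± 0.15. Among lower genes, Insig1 was at -0.66 ± 0.22 and -0.65 ± 0.22, Mfap4 at -1.01 ± 0.30 and -0.69 ± 0.30, Pdgfra at -0.74 ± 0.29 and -0.69 ± 0.29, and Nnmt at -0.33 ± 0.12 and -0.33 ± 0.12.

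Other genes of the same ranking had smaller differences, or differences of the other sign, at the earlier times. Plekhh2 was at -0.12 ± 0.19 in untreated cells and 0.15 ± 0.19 at 1 h. Its response, 10 h minus untreated, was -1.40 in wild type and -0.50 in knock-out, a difference in response of 0.90 ± 0.26. Timeless was at 0.16 ± 0.12 untreated, with a response of -0.41 in wild type and -1.15 in knock-out (difference in response -0.74 ± 0.17). Hey1 was at -0.00 ± 0.21 untreated and -0.19 ± 0.21 at 1 h, with a response of 2.07 in wild type and 1.30 in knock-out (difference in response -0.77 ± 0.29). Myl10 and Adcy1 had differences in response of 0.53 ± 0.12 and -0.54 ± 0.17, and Rab3il1, which was at 0.31 ± 0.29 at 1 h, of -0.82 ± 0.41. The difference in response itself passed for 0 of 13679 genes in limma (0% called; 305 at an unadjusted p under 0.05; smallest adjusted p = 0.999). The difference in the change from 1 h to 10 h passed for 0 genes as well (0% called; 367 unadjusted; smallest adjusted p = 0.626). These fits and their standard errors treat the arrays of one embryo as separate samples. With the embryo as a block 0 genes passed either. The smallest adjusted p in limma over all alternatives was then 0.995 for the difference in response (embryo as a fixed block). For the change from 1 h to 10 h it was 0.185 (embryo as a random block). None of these genes is therefore shown to respond differently.

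**Figure D2:**
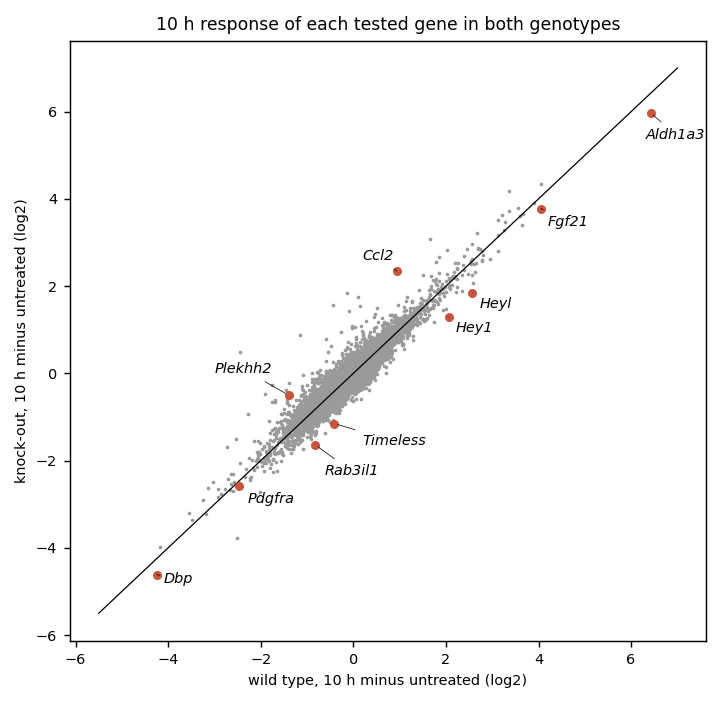
Change from untreated to 10 h of TGF-β1 (log2) of each of the 13679 tested genes, in wild type on the horizontal and in Nfic knock-out on the vertical axis, with the line of equal response. The points lie along the line from Dbp to Aldh1a3; Hey1, Heyl and Timeless lie below it, Ccl2 and Plekhh2 above it, and Pdgfra close to it at -2.48 and -2.57.

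The genes of the delayed TGF-β1 response had similar median responses in the 2 genotypes. A set of 334 genes stood at least 2-fold higher after 10 h in the mean of both genotypes with an adjusted p under 0.05, a choice that does not fix the sign of the genotype difference. Their median response was 1.36 in wild type and 1.35 in knock-out, and their median genotype difference at 10 h was 0.03, with 57.5% higher in the knock-out. This median was -0.012 without knock-out embryo 1, so that its sign turned, and 0.089 without wild-type embryo 2. Of these genes 15 had an unadjusted p under 0.05 and were higher (4.49%) and 7 lower (2.1%), beside 2.16% and 3.11% over all genes. The 513 genes at least 2-fold lower after 10 h had median responses of -1.28 and -1.27 and a median genotype difference of -0.02 (0.018 without knock-out embryo 1), with 21 higher (4.09%) and 26 lower (5.07%) at an unadjusted p under 0.05. In both sets 0 genes passed. The most induced gene, the retinaldehyde dehydrogenase gene Aldh1a3, read 10.67, 10.35 and 10.48 in wild type and 10.55, 9.79 and 10.11 in knock-out at 10 h, a difference of -0.35 ± 0.19 (limma adjusted p = 0.925), and of -0.55 without knock-out embryo 1.

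The genes of the TGF-β pathway lay close to 0. Of 14 tested ligands, receptors and latency proteins 0 had an unadjusted p under 0.05, and their median difference was -0.03. Single genes ran from -0.52 to 0.23, ends for which no value without 1 array is given. The ligand gene Tgfb1 was at -0.16 ± 0.19 and the receptor gene Tgfbr1 at 0.14 ± 0.17 (limma adjusted p = 0.958 and 0.960). Of 20 SMADs and SMAD feedback genes 0 had a p under 0.05, with a median of -0.06. Their single genes ran from -0.18 to 0.36, the latter for Tgif1. Tgif1 read 8.73 in wild-type embryo 2 and 9.51 to 9.74 on the other arrays, with overlapping groups. Smad3 was at -0.14 ± 0.09, the feedback inhibitor Smad7 at -0.07 ± 0.10 and the corepressor gene Skil at -0.05 ± 0.14 (0.933, 0.969 and 0.982 adjusted). The sign of Skil turned under some settings given with the limits.

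Of 24 tested SMAD targets 0 were higher and 2 lower at an unadjusted p under 0.05 (8.33% beside 3.11% of all genes), Hey1 and Snai2, and the list's median was 0.03. Snai2, a repressor of epithelial genes, read 10.38, 10.78 and 10.30 in wild type and 9.88, 10.20 and 10.27 in knock-out, a difference of -0.37 ± 0.14 (limma adjusted p = 0.912) without overlap. Without wild-type embryo 2 it was at -0.23, and a further Snai2 probe set was at -0.15 with overlapping groups. In untreated cells Snai2 was at 0.23 ± 0.14. The matricellular gene Ccn2 was at 0.07 ± 0.13, the cytokine gene Il11 at 0.12 ± 0.27 and the cell cycle inhibitor gene Cdkn1a at 0.08 ± 0.09, with overlapping groups. The clock output gene Dbp, with a response of -4.25 in wild type and -4.61 in knock-out, was at -0.09 ± 0.10, and the lipoprotein lipase gene Lpl at -0.16 ± 0.56.

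Of 15 PDGF ligands, receptors and signalling genes Pdgfra was the only one with an unadjusted p under 0.05 (6.67% lower beside 3.11% of all genes). The ligand gene Pdgfa read 10.00, 10.20 and 9.84 in wild type and 10.07, 9.87 and 10.05 in knock-out, a difference of -0.02 ± 0.16 (limma adjusted p = 0.997). Pdgfb read 7.46, 7.57 and 7.08 against 10.12, 7.60 and 7.33, or 0.98 ± 0.51 (0.925 adjusted). Its difference rests on knock-out embryo 1 and was 0.10 without it. The receptor gene Pdgfrb was at -0.11 ± 0.12.

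Contractile and matrix genes, the classic late targets of TGF-β in fibroblasts, were high in both genotypes. Of 25 contractile genes 1 was higher and 0 lower at an unadjusted p under 0.05 (4% higher beside 2.16% of all genes), 20 lay above 0 and the median was 0.07. The 1 gene was Myh11, the heavy chain of smooth muscle myosin, which read 7.27, 7.32 and 7.08 in wild type and 7.31, 8.14 and 8.21 in knock-out, or 0.66 ± 0.27 (limma adjusted p = 0.923). Acta2 was at 0.11 ± 0.07 and Tagln at 0.07 ± 0.07, both with values between 13.8 and 14.2 near the top of the scale (14.47), where a difference can be compressed. Further Acta2 probe sets at lower levels differed by 0.92 and 0.60. Their groups overlapped, and wild-type embryo 2 was lowest in each. Of 21 collagen chains Col11a1 was higher at an unadjusted p under 0.05 (4.76% beside 2.16%), at 0.28 ± 0.10. The median of the collagen chains was 0.02, and Col1a1 was at 0.02 ± 0.11. Of 21 matrix proteases and inhibitors 3 were higher and 0 lower at an unadjusted p under 0.05 (14.3% higher beside 2.16% of all genes). The gelatinase gene Mmp2 read 11.824, 11.800 and 12.001 against 12.014, 12.311 and 12.081 and differed by 0.26 ± 0.09, its inhibitor gene Timp2 by 0.26 ± 0.10, and Mmp3 by 0.96 ± 0.43 (0.878, 0.916 and 0.925 adjusted). Mmp3 read 7.23 in knock-out embryo 1 and 4.31 to 5.22 on the other arrays, and its difference without that array was 0.21.

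Of 26 Wnt ligands and modulators 4 were higher and 0 lower at an unadjusted p under 0.05, or 15.4% beside 2.16% of all genes, and the median was 0.05. They were the feedback genes Nkd2 at 0.38 ± 0.14 and Axin2 at 0.24 ± 0.10 and the ligand genes Wnt5b at 0.46 ± 0.18 and Wnt5a at 0.38 ± 0.18 (limma adjusted p from 0.912 to 0.925). Further Nkd2 probe sets were at 0.09, 0.29 and 0.11, with overlapping groups. Axin2 read 4.83, 5.11 and 5.10 in wild type and 5.27, 5.25 and 5.24 in knock-out, and without wild-type embryo 1 the difference was 0.15. In untreated cells Axin2 was at -0.14 ± 0.10. Of the 5 tested genes linked to Nfic in tooth root and bone, Klf4 was lower at an unadjusted p under 0.05 (20% beside 3.11% of all genes). It read 9.54, 9.73 and 9.47 against 8.82, 9.31 and 9.36, or -0.42 ± 0.15 (0.912 adjusted), and -0.25 without knock-out embryo 1. A further Klf4 probe set was at -0.15, with overlapping groups. In that list 7 other genes were below the filter on low values.

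The genes of sterol synthesis stood lower in the knock-out at 10 h as a group, as they did at the earlier times. Of 20 tested genes 19 lay below 0, 7 of them with an unadjusted p under 0.05 (35% beside 3.11% of all genes) and 5 without overlap (25% beside 4.96%), and the median was -0.44 beside -0.02 over all genes. None passed the adjusted threshold. Insig1, whose product holds the sterol sensor of the pathway in the endoplasmic reticulum and is itself a target of the pathway, read 7.78, 7.84 and 8.09 in wild type and 6.70, 7.38 and 7.05 in knock-out, or -0.86 ± 0.22 (limma adjusted p = 0.612). Pmvk, the phosphomevalonate kinase gene, read 7.004, 7.419 and 7.497 against 6.869, 6.899 and 6.753, or -0.47 ± 0.13 (0.693 adjusted). Stard4, a carrier of cholesterol, read 7.94, 7.94 and 8.38 against 7.32, 7.90 and 7.68, or -0.45 ± 0.15 (0.878 adjusted), and -0.29 without knock-out embryo 1. The remaining 2 genes without overlap were Mvd at -0.51 and Ebp at -0.27.

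In most of the 20 sterol genes knock-out embryo 2 reached into the wild-type range. Hmgcs1, the first committed enzyme of the mevalonate pathway, read 11.20, 11.57 and 11.82 in wild type and 10.60, 11.50 and 11.18 in knock-out, or -0.43 ± 0.21, and -0.19 without knock-out embryo 1. The mean level of the list was 8.85, 8.85 and 9.42 in wild type and 8.32, 9.04 and 8.64 in knock-out, so that the 2 groups overlapped. The median difference was -0.57 without knock-out embryo 2, -0.25 without knock-out embryo 1 and -0.27 without wild-type embryo 3. Fdps was the exception among the 20, with 11.10, 8.38 and 11.83 in wild type and 10.36, 11.27 and 10.86 in knock-out; the low value is that of wild-type embryo 2. Its difference was 0.39, and -0.64 without that array, 0.73 without wild-type embryo 1 and 0.63 without knock-out embryo 1. The median difference of the list was -0.40 in untreated cells and -0.41 at 1 h.

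Genes of DNA replication and S phase leaned lower at 10 h. Of 28 tested genes 24 lay below 0, 3 with an unadjusted p under 0.05 (10.7% beside 3.11%) and 8 without overlap (28.6% beside 4.96%), and the median was -0.17. The replication factor gene Mcm10 read 5.94, 5.99 and 5.72 in wild type and 5.59, 5.52 and 5.53 in knock-out, or -0.34 ± 0.11 (limma adjusted p = 0.878). The flap endonuclease gene Fen1 was at -0.27 ± 0.11 and the licensing factor gene Cdt1 at -0.40 ± 0.18 (0.912 and 0.925 adjusted). A further Fen1 probe set was at -0.08, with overlapping groups. The list's median was -0.05 in untreated cells and -0.06 at 1 h, and -0.08 at 10 h without knock-out embryo 2. Its mean level at 10 h was 7.54, 7.37 and 7.45 in wild type and 7.33, 7.14 and 7.42 in knock-out, with overlapping groups. Of 29 genes of mitosis and G2/M 0 had an unadjusted p under 0.05, and the median of -0.06 ran from -0.14 without knock-out embryo 1 to 0.13 without knock-out embryo 2.

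Of 23 genes of the ATF4 and amino acid stress response 19 lay below 0 and 4 had an unadjusted p under 0.05, all lower (17.4% beside 3.11%), with a median of -0.16, and of -0.25 without wild-type embryo 1. Psph, an enzyme of serine synthesis, read 10.02, 9.88 and 10.14 in wild type and 9.75, 9.49 and 9.70 in knock-out, or -0.37 ± 0.10 without overlap (limma adjusted p = 0.648). The lipoprotein receptor gene Vldlr was at -0.46 ± 0.15 and the hormone gene Fgf21 at -0.39 ± 0.15 (0.878 and 0.912 adjusted). Without wild-type embryo 2 Fgf21 was at -0.24. The remaining gene of the 4 was Ddit4 at -0.37. The median was -0.12 in untreated cells and -0.21 at 1 h. The mean level of the list was 9.90, 10.01 and 10.02 in wild type and 9.88, 9.69 and 9.84 in knock-out, without overlap.

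**Figure D3:**
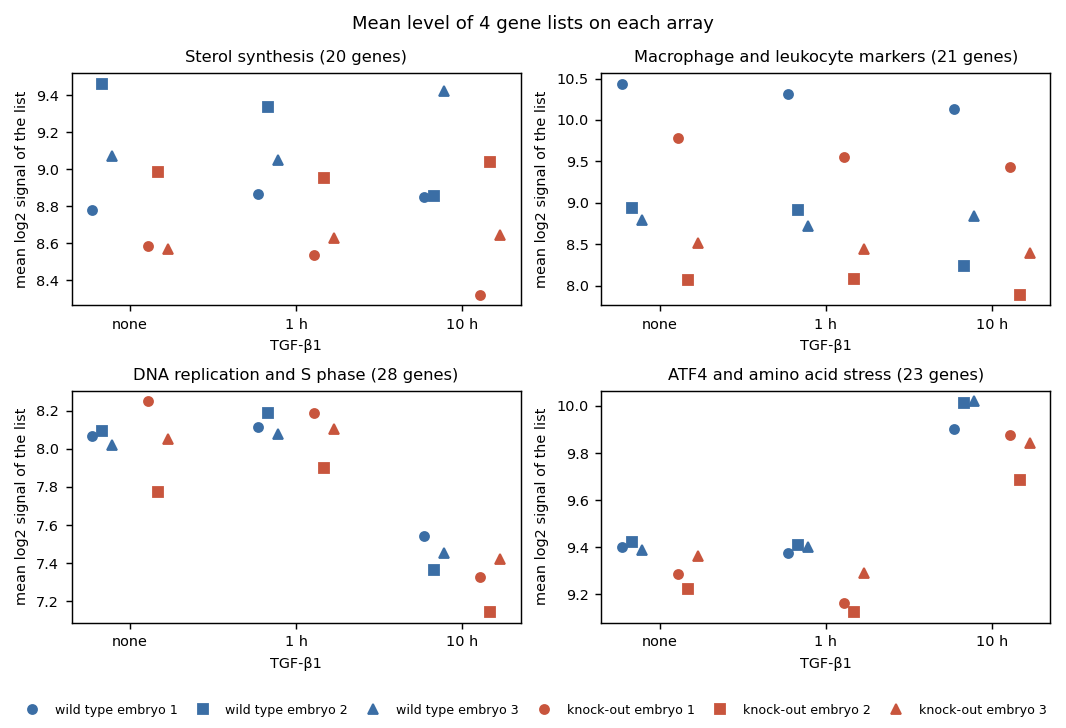
Mean log2 signal over the tested genes of 4 lists on each of the 18 arrays (vertical axes), in untreated cells and after 1 h and 10 h of TGF-β1, wild type in blue and Nfic knock-out in red, 1 symbol per embryo. At 10 h the ATF4 values do not overlap between genotypes, while the sterol, DNA replication and macrophage values do. Wild-type embryo 1 is highest in macrophage markers at every time.

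Markers of fibroblasts and of macrophages were both present. The mean level of the 14 fibroblast markers was 10.28 to 10.65 on the 6 arrays. Vim was between 13.7 and 13.9, but Pdgfra read only 5.48 to 6.85. Of these 14 markers 3 were lower in the knock-out at an unadjusted p under 0.05 (21.4% beside 3.11% of all genes). They were Pdgfra, S100a4 at -0.40 ± 0.15 and Prrx1 at -0.34 ± 0.16. S100a4 was at -0.26 without wild-type embryo 1, and Prrx1 at -0.16 without knock-out embryo 1 and at -0.51 without knock-out embryo 2. In bulk RNA fewer cells of a type and less RNA per cell cannot be told apart. All 21 macrophage and leukocyte markers were measured, and their mean level was 10.14, 8.24 and 8.84 in wild type and 9.44, 7.89 and 8.39 in knock-out, with overlapping groups. At 10 h 20 of the 21 lay below 0, 0 had an unadjusted p under 0.05, and the median was -0.53. The median of these markers was -0.59 in untreated cells and -0.60 at 1 h. The macrophage growth factor receptor gene Csf1r read 12.26, 10.85 and 10.54 against 11.59, 9.73 and 10.50. Without wild-type embryo 1, the array with the highest macrophage marker level, the median difference was -0.01, without wild-type embryo 2 it was -0.96, and without knock-out embryo 1 it was -0.97. The largest excesses of wild-type embryo 1 at 10 h were also in such genes, among them P2ry12, Aif1 and Csf2rb2, chosen after their values were seen. Of the markers of other cell types, Krt5 and Epb42 stood between 4.0 and 4.6, but not all such markers were low. The epithelial marker Pkp1 read 7.84 to 9.12. The mean level was 5.71 to 6.15 for the tested epithelial markers and 6.38 to 6.58 for the neural ones. The X-linked transcript Xist read 10.5 to 11.0 and the 3 Y-linked genes 2.9 to 3.7 on all 6 arrays.

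The largest single feature of the 10 h comparison was an inflammatory pattern on the array of knock-out embryo 1. Ccl2, which attracts monocytes, read 8.04, 8.36 and 8.72 in wild type and 13.21, 8.99 and 8.91 in knock-out. The groups did not overlap and the difference was 2.00 ± 0.82 (limma adjusted p = 0.923), but without knock-out embryo 1 it was 0.57 (0.848 adjusted). The chemokine gene Ccl3 read 11.52 in knock-out embryo 1 and 3.76 to 4.69 on the other 5 arrays, a gap of 6.83 or 114-fold. The acute-phase gene Saa3 read 10.55 against 4.65 to 5.18, the itaconate-forming enzyme gene Acod1 9.78 against 4.10 to 4.45, and Cxcl10 9.91 against 4.75 to 5.28. The cytokine genes Il1b and Tnf read 9.56 and 9.25, against 5.21 to 5.51 and 5.36 to 5.83 on the other arrays. Genes in this group were chosen after their values were seen.

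The same embryo read far lower in these genes at the earlier times. In untreated cells and at 1 h the 12 arrays of the 6 embryos read between 4.64 and 5.18 for Saa3, between 3.95 and 4.64 for Acod1 and between 5.04 and 5.47 for Il1b. Ccl3 was between 4.31 and 7.84 there and Ccl2 between 6.50 and 8.64. Untreated knock-out embryo 1 was the highest of these 12 arrays for 7 of the 12 genes with the largest gaps, namely Acod1, Clec4e, Cxcl10, Ccl2, Ccl20, Tnf and Ccl5. Its mean level over the chemokine and inflammation list was 7.09, against 6.60 to 6.77 on the other untreated arrays, and 6.97 at 1 h, within the 6.85 to 7.11 of the others. Of the 79 genes at least 2-fold above the other arrays, 31 had further probe sets, and in 30 of these at least 1 further probe set was also highest on this array. Cxcl2, kept out of the test because it was low on all but 1 array, read 12.59 in knock-out embryo 1 and 3.46 to 3.78 on the other arrays.

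**Figure D4:**
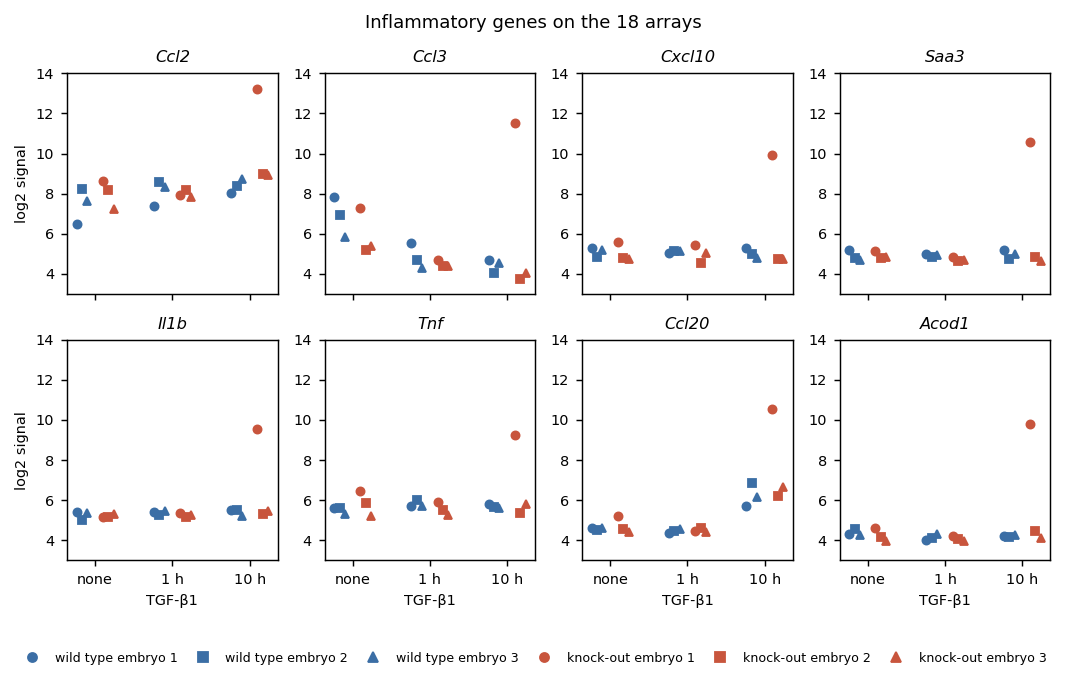
Log2 signal of 8 inflammatory genes on all 18 arrays (vertical axis, 3 to 14 in each panel) in untreated cells and after 1 h and 10 h of TGF-β1, wild type in blue and Nfic knock-out in red, 1 symbol per embryo. Knock-out embryo 1 at 10 h stands between 9.2 and 13.2 in all 8 panels, above every other array.

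As a list, 23 of 25 tested chemokine and inflammation genes lay above 0 at 10 h, 7 with an unadjusted p under 0.05 (28% beside 2.16%) and 2 without overlap (8% beside 2.64%), with a median of 0.74. Without knock-out embryo 1 the median was -0.03 and 0 had a p under 0.05. The mean level of the list was 7.27, 7.35 and 7.08 in wild type and 9.58, 7.20 and 7.30 in knock-out. The median was 0.12 in untreated cells and -0.11 at 1 h. The granulocyte factor gene Csf3 read 4.25, 4.30 and 4.16 against 6.94, 4.30 and 4.56, or 1.03 ± 0.43, and the receptor gene Fpr2 4.37, 4.36 and 4.30 against 6.96, 4.37 and 4.39, or 0.90 ± 0.45. Without that array they were at 0.19 and 0.04. The cyclooxygenase gene Ptgs2 and the macrophage growth factor gene Csf1 were at 0.44 ± 0.18 and 0.61 ± 0.23, and at 0.36 and 0.31 without it. The macrophage marker level of knock-out embryo 1 (9.44) was above that of the other knock-out embryos and below that of wild-type embryo 1 (10.14), in which the inflammatory genes read low. The part of macrophages, of the culture or of the array in this pattern was not tested.

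Of 26 interferon response genes 2 were higher and 0 lower at an unadjusted p under 0.05 (7.69% higher beside 2.16% of all genes). The median was 0.14, and -0.19 without knock-out embryo 1. The 2 were the guanylate-binding protein gene Gbp2 and the RNA sensor gene Ddx58. Gbp2 read 5.99, 6.00 and 4.68 in wild type and 8.49, 6.05 and 5.95 in knock-out, or 1.28 ± 0.50 (limma adjusted p = 0.912), and 0.45 without that array. Ddx58 was at 0.15 without it.

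To show what lies before the start sites of genes in these 2 groups, 250 bases upstream were read from RefSeq promoters (GRCm38.p6, 5′ to 3′ on the strand of the gene), which matched 10989 of the 13679 tested genes. The letters GGGAA and TTCC with 1 free base between them, a form of the element bound by NF-κB, were found on either strand before Cxcl1, Cxcl10 and Nfkbia of the 18 inflammatory genes with a promoter entry, and before 0.337% of tested genes. They were found before 0 of 16 sterol genes with an entry. The letters TCACNCCAC are a form of the element bound by sterol-regulated factors. They were found before Hmgcs1 among the 16 sterol genes and before 1.24% of tested genes. They were also found before Saa3 among the 18 inflammatory genes, a stretch not printed here. Matches are in capitals.

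Cxcl1 (chr5:90890995-90891244, plus strand): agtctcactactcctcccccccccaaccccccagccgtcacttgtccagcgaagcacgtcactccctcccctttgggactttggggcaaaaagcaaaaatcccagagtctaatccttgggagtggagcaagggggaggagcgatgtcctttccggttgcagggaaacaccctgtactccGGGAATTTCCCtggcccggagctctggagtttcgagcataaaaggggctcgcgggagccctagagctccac

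Cxcl10 (chr5:92348890-92349139, minus strand): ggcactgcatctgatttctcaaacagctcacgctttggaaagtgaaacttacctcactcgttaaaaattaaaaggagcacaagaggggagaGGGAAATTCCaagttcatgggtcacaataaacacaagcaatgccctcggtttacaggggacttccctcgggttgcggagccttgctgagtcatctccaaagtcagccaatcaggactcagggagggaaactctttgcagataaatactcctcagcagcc

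Nfkbia (chr12:55492648-55492897, minus strand): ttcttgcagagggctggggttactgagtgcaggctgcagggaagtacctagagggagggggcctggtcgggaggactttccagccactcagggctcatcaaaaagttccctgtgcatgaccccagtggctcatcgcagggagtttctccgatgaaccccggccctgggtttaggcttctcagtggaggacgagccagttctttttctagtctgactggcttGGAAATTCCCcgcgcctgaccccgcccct

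Hmgcs1 (chr13:119690101-119690350, plus strand): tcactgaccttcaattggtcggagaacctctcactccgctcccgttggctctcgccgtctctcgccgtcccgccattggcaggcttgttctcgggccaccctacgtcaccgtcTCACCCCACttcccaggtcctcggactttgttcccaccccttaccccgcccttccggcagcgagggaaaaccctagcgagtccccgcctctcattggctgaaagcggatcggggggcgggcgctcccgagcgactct

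In Cxcl1 the capitals cover 2 overlapping matches. At 10 h Cxcl1 read 7.62, 7.62 and 7.32 in wild type and 10.02, 7.32 and 7.55 in knock-out, and Nfkbia, the gene of an inhibitor of NF-κB, read 10.49, 10.42 and 10.33 against 12.64, 10.16 and 10.32, so that knock-out embryo 1 alone was high in both. The full palindrome of nuclear factor I, TTGGC and GCCAA with 5 free bases between them, was found before 4 tested genes (0.0364%), and before none of the 26 genes with a promoter entry among the 37 with the smallest p or the largest differences. At so low a rate a match among 26 genes would hardly be met, so its absence says nothing about them. The 4 genes were Fam160a1, Galt, Gstm7 and Oasl1. Fam160a1 read 5.47, 5.89 and 5.91 in wild type and 6.11, 6.07 and 6.30 in knock-out, or 0.40 ± 0.13 (limma adjusted p = 0.843), without overlap at any of the 3 times, and at 0.26 without wild-type embryo 1. Galt was at -0.01 ± 0.13, Gstm7 at -0.05 ± 0.09 and Oasl1 at 0.18 ± 0.15. A match of letters in this window does not show binding, and the lack of a match does not show its absence.

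The remaining 20 lists, from secreted growth factors, IGF binding proteins, Hox genes and clock genes to markers of endothelial, muscle, neural, erythroid and mast cells, had medians between -0.13 and 0.14, and each had at most 1 gene higher and 2 lower at an unadjusted p under 0.05. The largest shares were 9.09% higher among 11 epithelial markers and 12.5% lower among 8 IGF binding proteins, beside 2.16% and 3.11% of all genes.

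Wild-type embryo 2 stood apart in the other direction. Lgals9, the gene of the lectin galectin-9, read 4.64 on its 10 h array against 8.12 to 9.33 on the other 5, and the splicing factor gene Plrg1 6.67 against 8.93 to 9.33, both chosen after their values were seen. Of the 75 genes at least 2-fold below the other arrays 47 had further probe sets, and in 31 of these at least 1 of them was also lowest on this array. In untreated cells and at 1 h Lgals9 read 8.35 to 9.29 and Plrg1 8.86 to 9.39 over the 12 arrays. Without this array 834 genes had an unadjusted p under 0.05 and 0 passed, and without knock-out embryo 1 the numbers were 849 and 0.

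**Figure D5:**
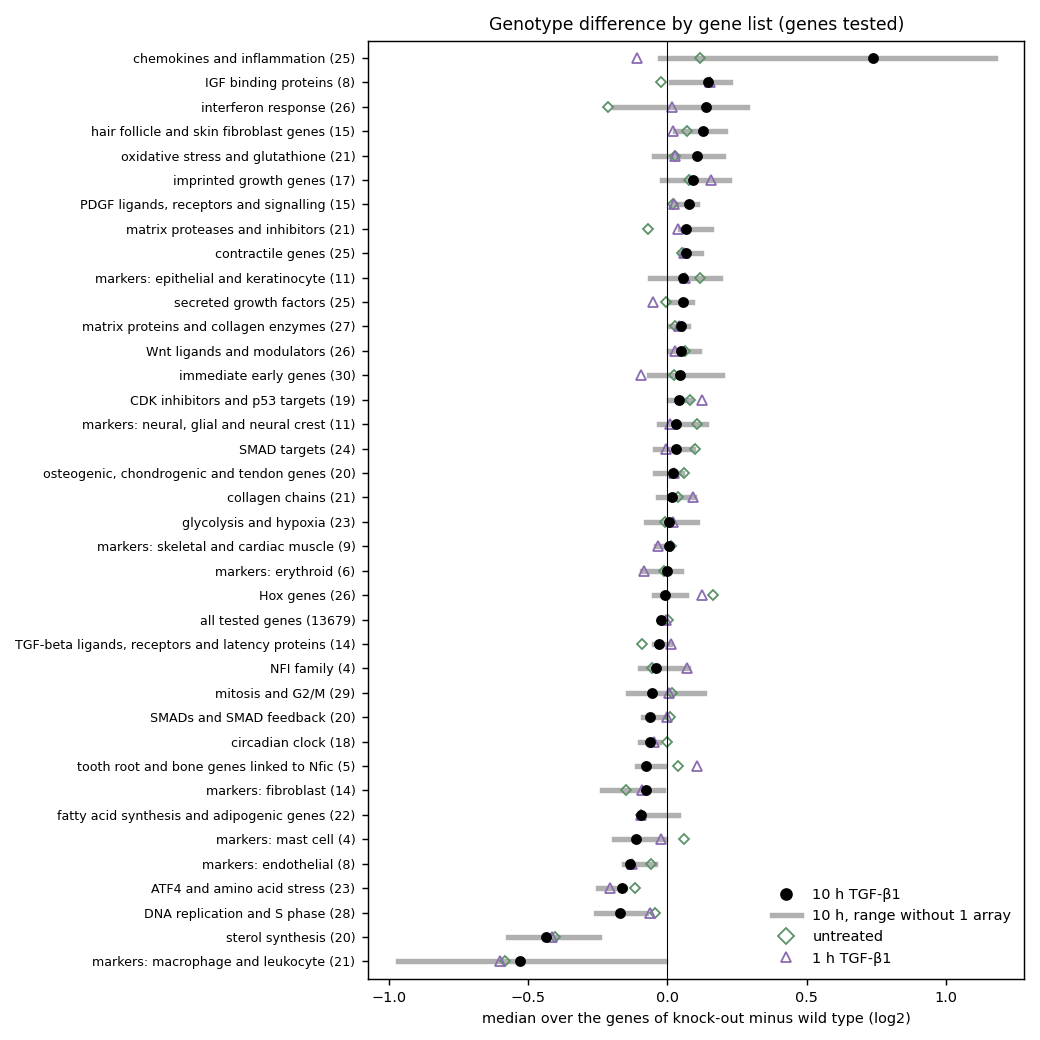
Median difference, knock-out minus wild type (log2), over the tested genes of each list (number in brackets), at 10 h as filled points with the range over leaving out each of the 6 arrays in grey, and in untreated cells and at 1 h as open symbols. The chemokine list lies at 0.74 with a range that crosses 0, and the sterol list at -0.44 with a range below 0 and open symbols at the same place. The macrophage list lies at -0.53, with a range from -0.97 to -0.01 and open symbols at -0.59 and -0.60. Most other lists lie within 0.2 of 0.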

How the data were processed

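The deposited values are log2 signals of an Affymetrix mouse genome array, made by the authors with RMA (background correction, quantile normalization and probe summary), per the submitters' processing notes, with no version given. RMA forces arrays to 1 distribution, so a change shared by most genes would not be seen. Of 45101 probe sets 34958 carried 1 gene symbol, 932 several and 9211 were not named, and 34754 were matched to RefSeq by Entrez number. The brightest probe set by the mean over 18 arrays stood for each of 18194 genes. Genes above the 40th percentile of an array on at least 3 arrays were tested (13679), and 4515 were not. A model of 6 group means over all 18 arrays was fitted in limma 3.58.1 (R 4.3.3), with Benjamini-Hochberg adjustment over all tested genes. It had no term for the embryo and was tested on simulated data.

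Named genes were any that passed, otherwise the 12 per direction with the smallest p, the 8 per direction with the largest differences without overlap, up to 3 per list with the smallest p, and a set of pathway genes; other named genes were chosen after their values were seen. The comparison, the genes and the 38 lists were chosen with earlier results of these data known. The labels speak of triplicate cultures of different embryos, and p-values measure the spread between these samples. Alternatives changed the fit, the filter, the probe set rule, the scaling and the arrays used.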

Additional observations from a re-analysis of the deposited data

How the results depend on the processing

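No gene passed in the comparison at 10 h under 16 of 17 alternatives in limma, with 366 to 1176 genes at an unadjusted p under 0.05. The exception was leaving out knock-out embryo 2, which gave 1 gene, Celsr3 (0.89, adjusted p = 0.00843, against 0.63 and 0.641 with all arrays), named after its value was seen. Same-numbered arrays of the 2 genotypes had correlations of their deviations of 0.13, -0.20 and -0.02, so the numbers were not used as pairs. With the replicate number as a block on the 6 arrays, 0 genes passed and 366 had an unadjusted p under 0.05, and the block changed no other call. Both differences in response gave 0 genes under every alternative run. Leaving out 1 array at a time turned the sign of some small values: Il11 -0.11 to 0.52, Skil -0.14 to 0.019, Lpl -0.62 to 0.25, Col1a1 -0.022 to 0.098, Nfix -0.090 to 0.19, Pdgfa -0.10 to 0.075, Ccn2 -0.019 to 0.17, Fdps -0.64 to 1.09, Galt -0.15 to 0.18, Gstm7 -0.14 to 0.0076, Oasl1 -0.043 to 0.34. With the mean of all probe sets Skil was at 0.15, Gstm7 at 0.077 and the median of the SMAD list at 0.023. Leaving out 1 array moved some list medians: mitosis and G2/M -0.14 to 0.13, genes higher after 10 h -0.012 to 0.089, IGF binding proteins 0.012 to 0.22, ATF4 and amino acid stress -0.25 to -0.15, markers of fibroblast -0.23 to -0.017, PDGF ligands, receptors and signalling 0.019 to 0.11, SMADs and SMAD feedback -0.088 to -0.0036, hair follicle and skin fibroblast genes 0.026 to 0.21, imprinted growth genes -0.018 to 0.22, markers of neural, glial and neural crest -0.031 to 0.14. The cause was not tested. Precision is limited by the number of arrays: at the adjusted threshold even the Perp difference of 0.89 did not pass. Probes near background or saturation understate differences.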

Other observations

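Among probe sets without a single gene symbol, 4329 were tested in limma beside the named ones, 0 passed and 148 had an unadjusted p under 0.05 (3.42%).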
